A study of Mus musculus with 9 samples.

Results

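Akr1c18, Gna14 and Spink2 were among the genes whose signal dropped most after Gata2 shRNA. They had the largest drops outside the mast cell receptor genes Il1rl1 and Fcer1a among 452 named genes that limma called lower at an adjusted p of 0.05, that read well above background on all arrays of the Gata2 knockdown (Gata2 KD) and the empty vector control (EV), and whose values did not overlap between these groups. Among all 15808 named genes with a tested probe, without those conditions, Akr1c18, Gna14 and Spink2 ranked 1, 5 and 7 for the size of the drop. Their probes were found by matching the accession of every probe on the array to a RefSeq gene table, which gave 1 probe for each of the 3 genes out of 41174 distinct probes. All 3 passed the filter on dim probes, as did 36585 probes in all, and 15808 of the 16535 genes named on the array had a probe that passed. Because the difference between Gata2 KD and EV chose these genes, their values in that comparison and in Gata2 KD against Pu.1 KD are given as a description and were not tested. The comparison of Pu.1 KD with EV was tested, although it uses the same EV arrays.

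The cells were FDCPmix, a mouse multipotent hematopoietic progenitor line, kept in self-renewal conditions. They received lentiviral particles that carried Gata2 shRNA, Pu.1 shRNA (against Spi1, which encodes PU.1) or only the empty vector (EV), and the study's methods place the hairpins in the Lentilox vector. Viable GFP+ cells were sorted 5 days later in all 3 groups, and 150 ng of total RNA per sample was labeled with Cy3 for 3 arrays per group. The groups therefore share the line, the lentivirus and the sort. Each virus was given to triplicate samples of this 1 cell line, so p-values measure the spread between transduced samples of 1 line, and how far apart in culture these samples were kept is not given in the sources used here.

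Akr1c18 encodes a hydroxysteroid dehydrogenase of the aldo-keto reductase superfamily that reduces progesterone to a less active metabolite, and this enzyme activity has long served as a readout of the response to IL-3 in blood cells. Gna14 encodes the alpha subunit of a Gq-class heterotrimeric G protein, which links surface receptors to phospholipase C-beta and so to calcium release and protein kinase C. Spink2 encodes a small Kazal-type inhibitor of trypsin-like serine proteases, best known from the sperm acrosome, and its human counterpart belongs to a leukemia stem cell expression signature.

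The promoter sequences of the 3 genes, which share the pattern described here, are shown with those of Akr1c19 and Akr1c12, the relatives of Akr1c18 that were also lower in Gata2 KD. All come from RefSeq on GRCm38.p6, and each run is the 250 bases before a gene's start site, read 5′ to 3′ on the gene's own strand. Capitals mark the letters GATA or, where they lie on the other strand, TATC. The windows are chr13:4150647-4150896 on the minus strand for Akr1c18, chr19:16435417-16435666 on the plus strand for Gna14, chr5:77211472-77211721 on the minus strand for Spink2, chr13:4233490-4233739 on the plus strand for Akr1c19 and chr13:4279400-4279649 on the minus strand for Akr1c12. For Spink2 the table holds 3 start sites, and the one farthest upstream is shown.
Akr1c18: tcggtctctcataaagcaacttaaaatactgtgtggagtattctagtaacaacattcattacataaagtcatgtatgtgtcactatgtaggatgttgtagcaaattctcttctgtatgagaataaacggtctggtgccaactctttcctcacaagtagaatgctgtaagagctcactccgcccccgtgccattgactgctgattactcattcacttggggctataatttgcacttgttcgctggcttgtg
Gna14: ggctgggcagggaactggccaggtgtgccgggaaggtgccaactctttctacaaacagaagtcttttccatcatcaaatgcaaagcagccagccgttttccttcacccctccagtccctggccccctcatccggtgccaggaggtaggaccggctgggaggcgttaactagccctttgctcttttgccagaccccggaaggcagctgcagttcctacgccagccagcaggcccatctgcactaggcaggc
Spink2: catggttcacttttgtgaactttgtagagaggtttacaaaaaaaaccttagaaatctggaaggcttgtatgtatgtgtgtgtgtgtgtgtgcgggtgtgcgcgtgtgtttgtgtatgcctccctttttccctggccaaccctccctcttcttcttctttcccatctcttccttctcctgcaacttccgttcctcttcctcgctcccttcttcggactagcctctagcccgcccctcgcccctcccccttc
Akr1c19: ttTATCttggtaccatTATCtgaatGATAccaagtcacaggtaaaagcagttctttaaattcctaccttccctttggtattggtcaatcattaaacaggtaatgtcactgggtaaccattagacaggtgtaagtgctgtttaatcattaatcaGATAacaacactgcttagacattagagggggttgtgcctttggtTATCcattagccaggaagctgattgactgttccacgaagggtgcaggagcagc
Akr1c12: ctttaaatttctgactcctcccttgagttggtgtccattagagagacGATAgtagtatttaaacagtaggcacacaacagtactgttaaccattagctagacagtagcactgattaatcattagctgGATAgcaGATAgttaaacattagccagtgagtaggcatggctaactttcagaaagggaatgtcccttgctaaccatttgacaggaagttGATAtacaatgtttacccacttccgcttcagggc

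Motifs were searched on both strands from 250 bases before to 50 bases after each start site. They were GATA, a 6-base form with A or T before GATA and A or G after it, a 7-base form with A or T before GATAAG, which is part of the 6-base set, and the ETS motif GGAAGTG. Of 32851 windows in the table, 57.9% held GATA, 29.8% held a 6-base form, 5.21% held a 7-base form and 11% held GGAAGTG. None of these letters was found in the window of Akr1c18, in that of Gna14 or in any of the 3 windows of Spink2. The Akr1c19 window held GATA 6 times, 4 of them as a 6-base form and 1 as TGATAAG, which starts 23 bases past the start site and so lies outside the printed run. In the Akr1c12 window GATA occurred 4 times, once as AGATAG, and GGAAGTG occurred 2 times. Relatives of Akr1c18 that were not called in Gata2 KD were searched too. Akr1c6 held GATA 3 times, never as a 6-base form, Akr1cl held it 1 time, as AGATAA, and Akr1c21 held none. None of the motifs was found in the windows of Gnaq, which was higher in Gata2 KD, Gna11 or Gna15. A link between motifs and differences was not tested. A match describes letters only, and the lack of one says nothing of binding elsewhere.

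The labels were checked first on the targeted genes. On the log2 scale, relative to the 75th percentile of the processed signals of the same array, Gata2 had a level of 4.80 ± 0.27 in EV against 3.19 ± 0.36 in Gata2 KD, and Spi1 one of -1.86 ± 0.21 in EV against -3.59 ± 0.06 in Pu.1 KD (mean ± SD, n = 3 here and below). In Gata2 KD replicates 1 to 3 Spi1 read -0.66, -0.36 and -0.39, above all EV arrays. Gata2 KD and Pu.1 KD therefore lie on opposite sides of EV for Spi1. The arrays lay on 3 slides, each with 1 array of every group, and the share of spots well above background was 80.4% to 89.6%. Of the variance over the arrays, the first principal component held 36.5%, of which 78.4% lay between slides, and the second held 28.4%, of which 98.7% lay between groups. EV replicate 3, on slide 2, was the array least like the others (mean Pearson r of 0.960 across probes). All but 1 of the 13 stem and progenitor markers read well above background on all 9 arrays.

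**Figure D1:**
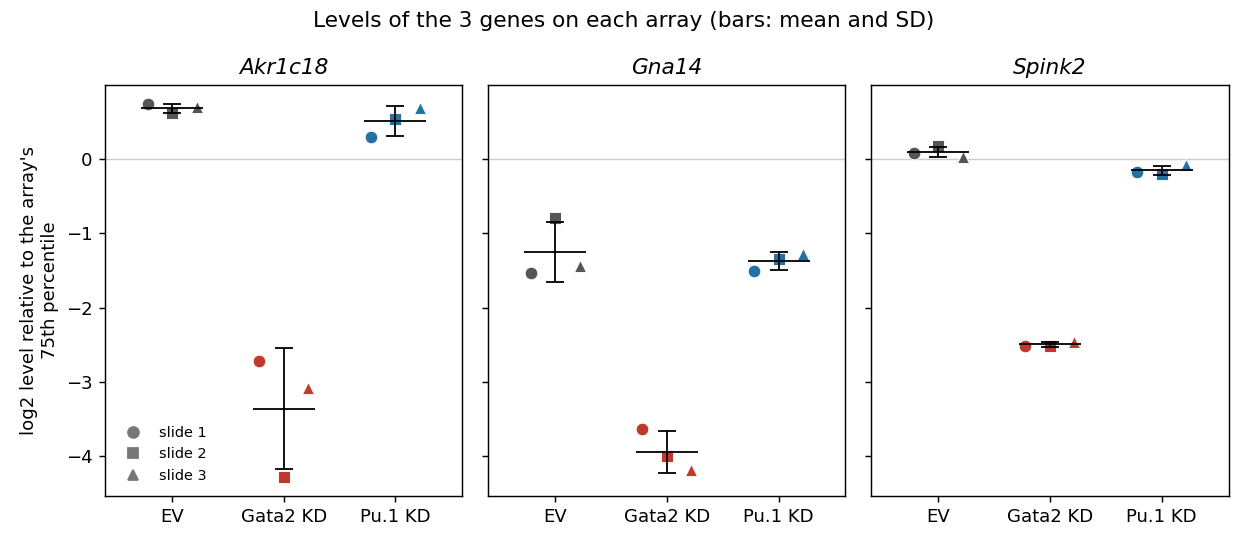
Log2 level of Akr1c18, Gna14 and Spink2 relative to the 75th percentile of the array (vertical axis) in EV, Gata2 KD and Pu.1 KD. Each point is 1 array, its shape gives the slide, and bars give the mean and SD of 3 arrays. In each panel the 3 Gata2 KD arrays lie below the other 6, with means of -3.36, -3.94 and -2.50.

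Akr1c18 was readily measured in EV and Pu.1 KD cells and was lowest in Gata2 KD cells. Its levels were 0.74, 0.70 and 0.62 in EV replicates 1 to 3, -3.09, -4.28 and -2.71 in Gata2 KD, and 0.54, 0.69 and 0.29 in Pu.1 KD. Every Gata2 KD array lay far below the other 6, while 1 of the Pu.1 KD arrays fell among the EV arrays. Group means were 0.69 ± 0.06, -3.36 ± 0.82 and 0.51 ± 0.20 for EV, Gata2 KD and Pu.1 KD. The difference between Gata2 KD and EV was -4.05, a 16.5-fold lower signal that left 6.06% of the EV level. It depended on the background correction, at -3.01 with normexp and -3.36 in the deposited table of log2 values. Against Pu.1 KD the difference was -3.87. The spread within Gata2 KD was wide, and the probe there read only 3.50 to 10.6 times the dimmest signal called well above background on the same array. In these bulk samples, fewer cells that express a gene and less of its RNA per cell cannot be told apart.

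Gna14 followed the same order of groups with a smaller drop. EV replicates 1 to 3 read -1.53, -1.44 and -0.79, Gata2 KD replicates read -4.19, -4.00 and -3.63, and Pu.1 KD replicates read -1.34, -1.28 and -1.51. EV replicate 3 stood above the other EV arrays, and the Pu.1 KD arrays lay inside the EV range. The means were -1.26 ± 0.40 in EV, -3.94 ± 0.28 in Gata2 KD and -1.38 ± 0.12 in Pu.1 KD. Gata2 KD was lower than EV by a log2 difference of -2.68, or 6.42-fold, which left 15.6% of the EV level, and it differed from Pu.1 KD by -2.56. Its signal in Gata2 KD was 3.17 to 5.58 times the dimmest one called well above background, and its drop was again smaller with normexp correction (-1.53) and in the deposited table (-1.87).

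Spink2 gave the tightest values of the 3 genes. Its levels were 0.08, 0.03 and 0.17 in EV, -2.46, -2.52 and -2.51 in Gata2 KD, and -0.20, -0.09 and -0.17 in Pu.1 KD. Gata2 KD lay well below both other groups, and the Pu.1 KD arrays lay just under the EV arrays without overlap. Group means were 0.09 ± 0.07, -2.50 ± 0.03 and -0.15 ± 0.06. Gata2 KD differed from EV by -2.59, a 6.01-fold lower signal or 16.6% of the EV level, and from Pu.1 KD by -2.34. With normexp correction the difference from EV was -1.999, and in the deposited table it was -2.23.

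In all 3 genes the Gata2 KD arrays did not overlap the EV arrays. Of all tested probes, 10.9% were lower in Gata2 KD without overlap, and limma called 2.24% lower and 5.2% in either direction at an adjusted p of 0.05. Nothing is read from this count, since that contrast chose the genes. Among the 452 genes that were called lower, well above background and without overlap, Akr1c18 ranked 1, Gna14 ranked 4 and Spink2 ranked 5. The IL-33 receptor gene Il1rl1 (-3.21) and the IgE receptor gene Fcer1a (-2.96) held ranks 2 and 3. Spink2 at -2.59 was the last gene inside the selection, and Cd55, which encodes the complement regulator decay-accelerating factor, followed at -2.53 just outside it.

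**Figure D2:**
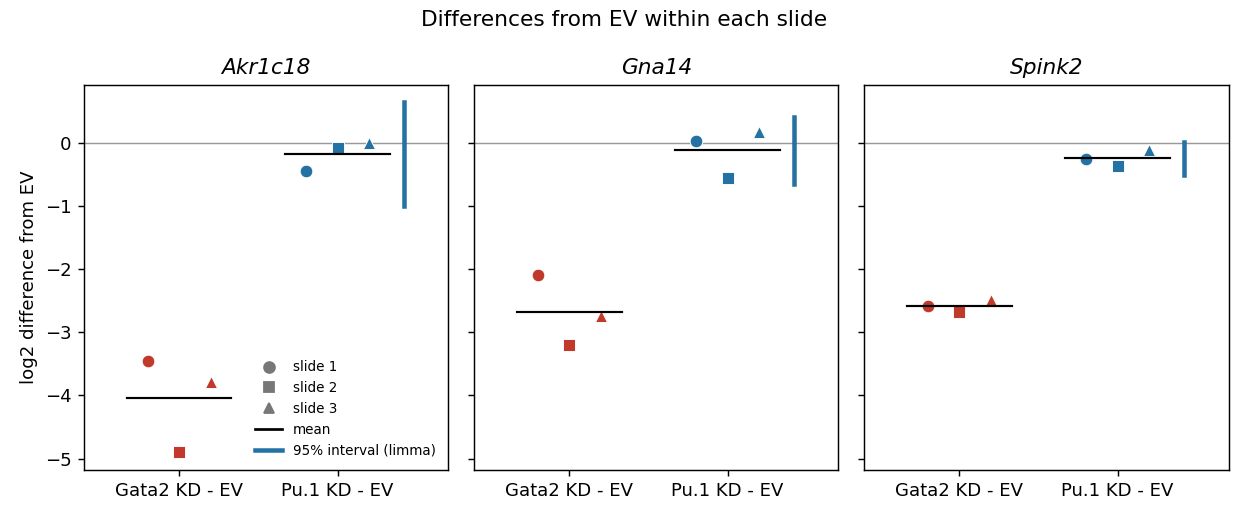
Log2 difference from EV (vertical axis) within each slide for Gata2 KD (red) and Pu.1 KD (blue). Symbols give the slide, horizontal bars the mean of 3 slides, and the vertical blue line the 95% confidence interval from limma for Pu.1 KD. That interval comes from the fit to all 9 arrays, which had no term for slide. All 9 Gata2 KD differences lie at -2.10 or lower, and the 3 intervals for Pu.1 KD include 0.

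The drop was present on each slide, with a spread that differed between genes. For Akr1c18 the Gata2 KD array was below the EV array by a log2 difference of -3.45 on slide 1, -4.90 on slide 2 and -3.79 on slide 3. For Gna14 the same differences were -2.10, -3.21 and -2.74, with the largest again on slide 2, which held EV replicate 3. Spink2 differed by -2.59, -2.68 and -2.49, a range far narrower than that of the other genes.

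Pu.1 KD gave no called change in any of the 3 genes. Akr1c18 differed between Pu.1 KD and EV by -0.18 (SE 0.36, 95% confidence interval -0.99 to 0.64, adjusted p 0.990). Each SE rests on 1 spread shared by the 3 groups. The SDs of Akr1c18 were 0.06 in EV, 0.20 in Pu.1 KD and 0.82 in Gata2 KD, so its interval draws mostly on Gata2 KD. With only EV and Pu.1 KD fitted, its adjusted p by limma was 0.950. For Gna14 the difference was -0.12 (SE 0.23, interval -0.65 to 0.41, adjusted p 0.987), and without EV replicate 3 it changed sign to 0.11. Spink2 differed by -0.25 (SE 0.12, interval -0.51 to 0.02, unadjusted p 0.067 by limma, adjusted p 0.468), and it was lower in Pu.1 KD on 3 of 3 slides, by -0.25, -0.37 and -0.12. Across the array 9.32% of probes were lower in Pu.1 KD without overlap, as Spink2 was, and 2.7% were called in either direction. Among all named genes, 31.1%, 38.1% and 23.9% had a lower Pu.1 KD difference than Akr1c18, Gna14 and Spink2. These intervals leave room for modest changes, and a p that misses the threshold does not show that levels were equal.

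Other genes of the 3 families were measured with the same fit, in which Gata2 KD against EV called 7.15% of named genes (4.21% higher, 2.95% lower) and Pu.1 KD against EV called 3.61% (1.45% higher, 2.16% lower). Of the AKR1C family, 5 genes besides Akr1c18 were tested, of which 2 were called lower in Gata2 KD and none was called higher. The brighter probe of Akr1c12, an aldo-keto reductase gene of the same cluster, read 7.37, 7.45 and 7.45 in EV, 6.08, 5.88 and 6.06 in Gata2 KD, and 6.62, 6.79 and 6.81 in Pu.1 KD. The 3 groups were fully separated, with Pu.1 KD between the others. Akr1c12 was lower in Gata2 KD by a log2 difference of -1.41 (adjusted p 0.000367), and its other probe gave -1.42 (adjusted p 0.0105). In Pu.1 KD the brighter probe differed by -0.68 (adjusted p 0.0298), a call lost under 10 of 19 alternatives. The other probe differed by -0.65 (adjusted p 0.280), and it was called under 2 of 19, slide as a block (adjusted p 0.0406) and the deposited table.

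Akr1c19, another member of the cluster, read 5.69, 6.08 and 5.24 in EV at its brighter probe, 4.31, 4.33 and 4.64 in Gata2 KD, and 5.11, 5.11 and 4.93 in Pu.1 KD. Again the Gata2 KD arrays were lowest, and the Pu.1 KD arrays lay between them and EV. The difference between Gata2 KD and EV was -1.24 (adjusted p 0.0130), a call lost with scaling to the median and without Gata2 KD replicate 1 or 2. The other probe was far dimmer, at -0.65 ± 0.02 in EV against 5.67 ± 0.42 for the brighter, so the level of Akr1c19 depends on the probe. This dimmer probe gave -1.11 (adjusted p 0.00189), called under 19 of 19 alternatives. In Pu.1 KD the probes gave -0.61 (adjusted p 0.257) and 0.13 (adjusted p 0.902), so they differed in sign and neither was called. Akr1c12 and Akr1c19 are close paralogs, and whether a probe also read a paralog was not tested. Akr1c6, Akr1c21 and Akr1cl were not called, with Gata2 KD differences of -0.22, 0.07 and -0.02. Their EV levels were -2.01 ± 0.37, -1.53 ± 0.28 and -2.83 ± 0.88, far below those of the brighter Akr1c12 and Akr1c19 probes. Gna14 read -1.26 in EV, and whether a low EV level hid a drop was not tested. Of 7 other aldo-keto reductase genes tested, none was called in either comparison by limma, and at an unadjusted p of 0.05 the counts were 0 in Gata2 KD and 1 in Pu.1 KD.

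**Figure D3:**
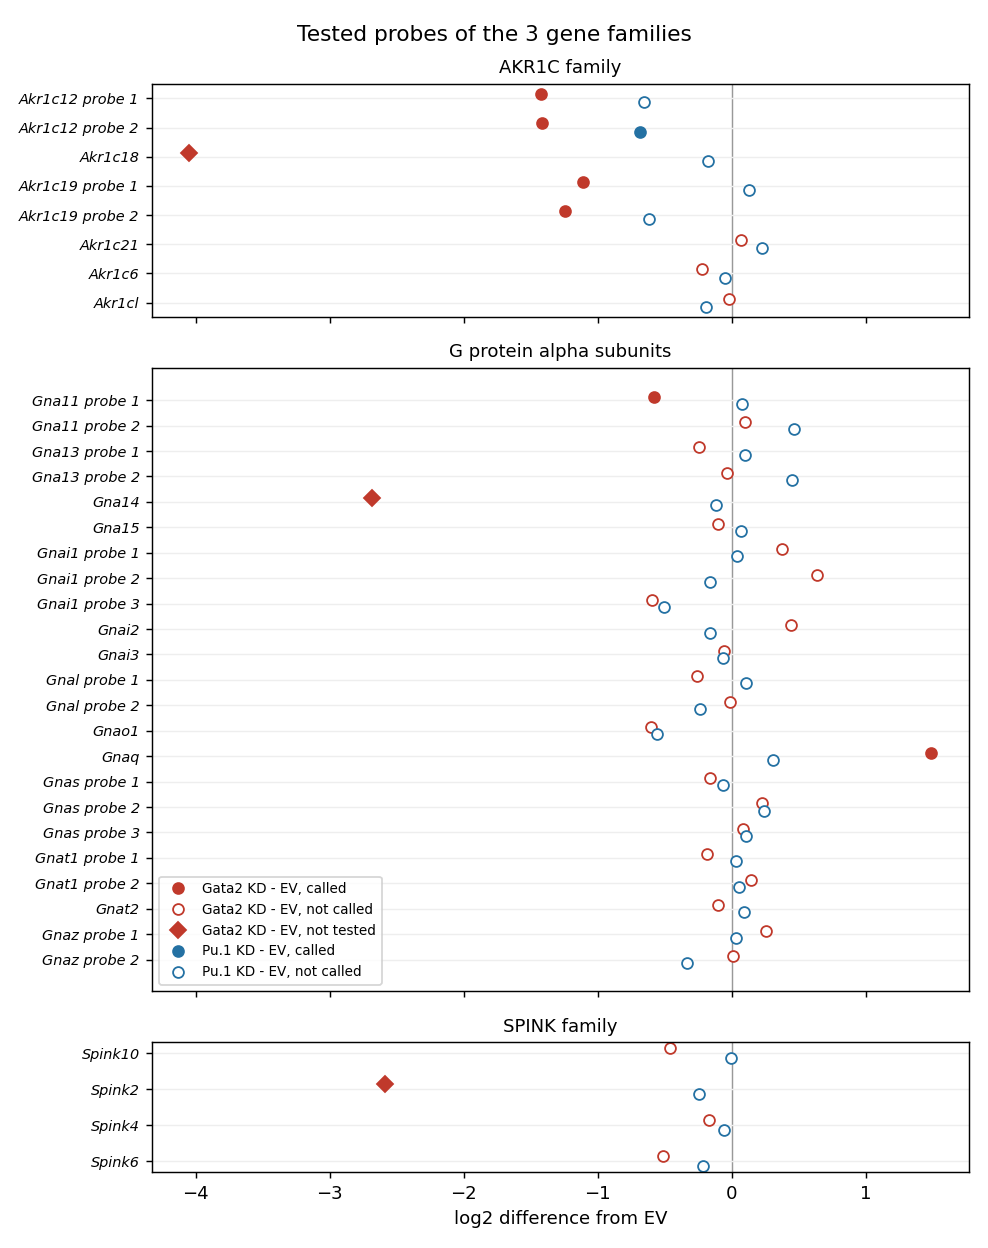
Log2 difference from EV (horizontal axis) of every tested probe of the AKR1C, G protein alpha and SPINK families in Gata2 KD (red) and Pu.1 KD (blue). Filled circles were called at an adjusted p of 0.05, open circles were not, and diamonds mark the 3 genes whose Gata2 KD difference was not tested. Gnaq at 1.49 is the probe farthest to the right, opposite Gna14 at -2.68.

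Among the G protein alpha subunits, Gnaq moved opposite to Gna14. Gnaq encodes another Gq-class alpha subunit, and it read -1.20, -1.06 and -1.30 in EV, 0.55, 0.19 and 0.16 in Gata2 KD, and -1.13, -0.88 and -0.64 in Pu.1 KD. All Gata2 KD arrays were above all others, while Pu.1 KD overlapped EV. Gnaq was higher in Gata2 KD by 1.49 (2.81-fold, SE 0.18, adjusted p 0.00172), was called under 19 of 19 alternatives at 1.28 to 1.56, and was higher on every slide by 1.36, 1.50 and 1.61. In Pu.1 KD it differed by 0.31 (adjusted p 0.624). Of the 13 alpha subunits tested besides Gna14, Gnaq was the 1 called in Gata2 KD, and none was called in Pu.1 KD, by limma on the brightest probe of each gene (0 at an unadjusted p of 0.05). The Gata2 KD call was 7.69% of this list, close to the 7.15% of all named genes. With slide as a block, 3 of the 13 were called in Gata2 KD and 1 in Pu.1 KD. That setting called 2886 and 1875 of all 36585 tested probes in the same comparisons.

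The other Gq-class genes had smaller differences. Gna15, the form of blood cells, differed by -0.10 (adjusted p 0.933) in Gata2 KD and 0.07 in Pu.1 KD. The 2 probes of Gna11 disagreed in Gata2 KD, at 0.10 (adjusted p 0.974) for the brighter on average and -0.58 (adjusted p 0.0256) for the other, whose call was lost under 9 of 19 alternatives. The brighter probe of Gna11 differed between Pu.1 KD and EV by 0.47 (adjusted p 0.572, and 0.0465 with slide as a block, the 1 alternative of 19 that called it). Outside that class Gnai2, which encodes an inhibitory subunit abundant in leukocytes, differed by 0.44 in Gata2 KD (adjusted p 0.0913), and it was called under 4 of 19 alternatives, among them slide as a block (adjusted p 0.0442). The remaining alpha subunit probes lay between -0.60 and 0.63 in Gata2 KD with no call.

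Few relatives of Spink2 were measurable. Of 11 other SPINK genes listed, 5 were on the array and 3 were tested, and none was called by limma in either comparison, nor passed an unadjusted p of 0.05. Spink4 differed by -0.17 in Gata2 KD and -0.06 in Pu.1 KD. Spink6 and Spink10 differed by -0.51 and -0.46 in Gata2 KD, but they read well above background on only 4 and 5 of the 9 arrays.

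**Figure D4:**
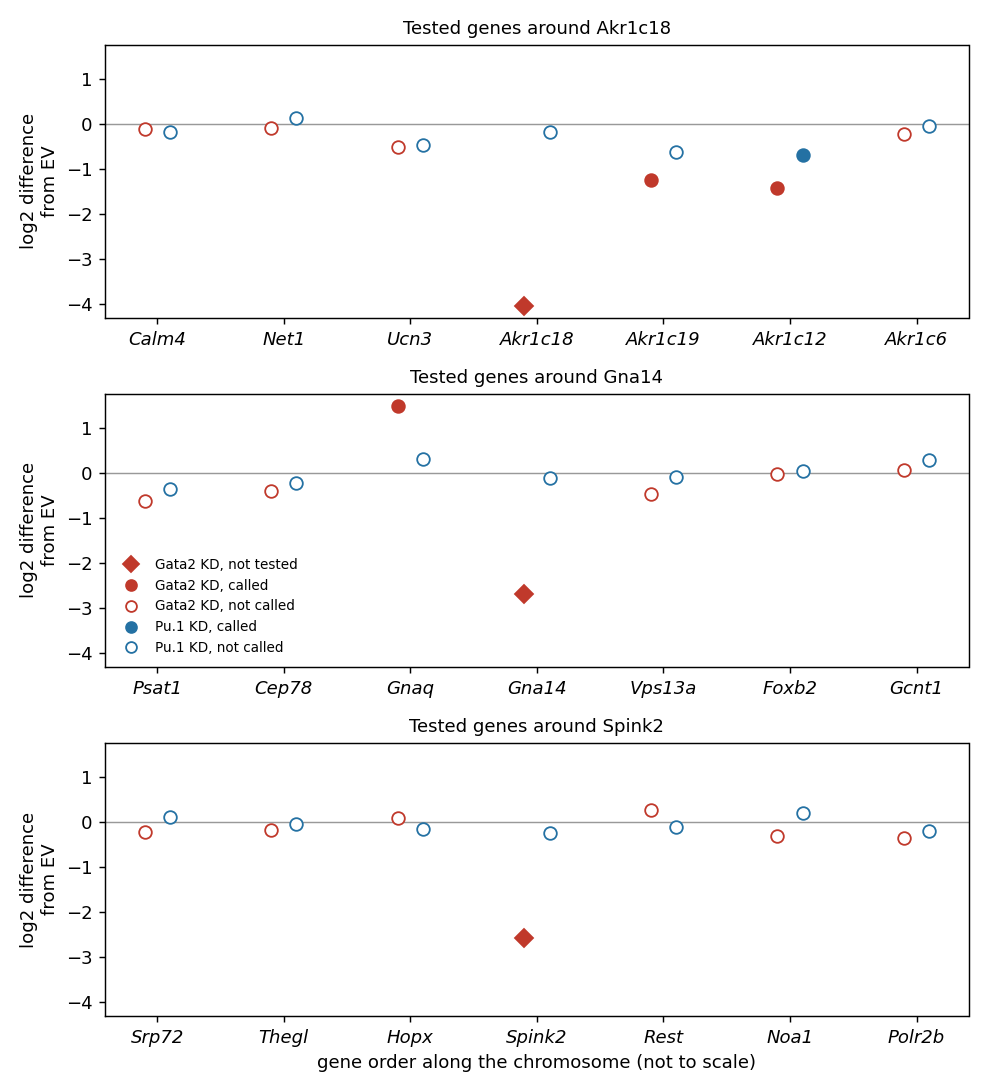
Log2 difference from EV (vertical axis) of Akr1c18, Gna14 and Spink2 and of the 3 nearest tested genes on each side, in the gene order of RefSeq (horizontal axis, not to scale). Red marks Gata2 KD, blue Pu.1 KD, filled circles a call, open circles no call and diamonds values not tested. The called neighbors are Akr1c19 and Akr1c12 around Akr1c18 and Gnaq around Gna14.

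The nearest tested genes around each locus, with 1 to 11 other genes between, were compared to see whether they moved with it. Around Akr1c18, the neighbors away from the cluster, Calm4, Net1 and Ucn3, had Gata2 KD differences of -0.10, -0.09 and -0.50 and were not called. On the cluster side Akr1c19 and Akr1c12 were lower, while Akr1c6 (-0.22) was not called. Calm4, Net1 and Ucn3 were dim already in EV, at -2.82, -4.46 and -4.45, and whether this hid a drop was not tested. Gnaq lies 6 genes from Gna14 in the RefSeq order and was higher. The other tested genes around Gna14 were Psat1 (-0.62), Cep78 (-0.41), Vps13a (-0.47), Foxb2 (-0.03) and Gcnt1 (0.08), none of them called. Cep78 and Foxb2 were also dim in EV, at -2.56 and -2.63. Around Spink2, the tested genes Srp72, Thegl, Hopx, Rest, Noa1 and Polr2b ranged from -0.35 to 0.28 with no call, which does not show equal levels. Thegl and Hopx were dim in EV, at -2.37 and -2.07. The nearest tested gene, with 1 gene between it and Spink2, was Rest, which encodes a repressor of neuronal genes and differed by 0.28 (adjusted p 0.653).

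**Figure D5:**
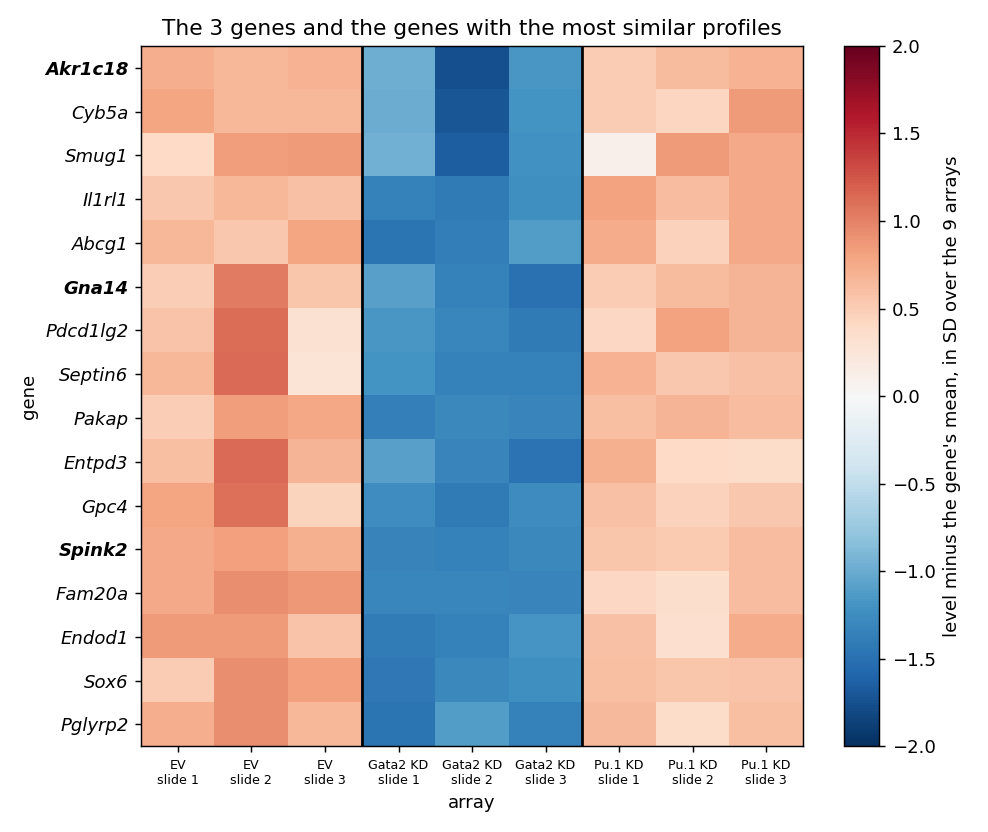
Level of each gene minus its mean, in units of its SD over the 9 arrays (color), for Akr1c18, Gna14 and Spink2 (bold) and the 5 genes most like each (rows), by group and slide (columns). All rows are lowest in the 3 Gata2 KD columns, and Akr1c18, Cyb5a, Smug1, Il1rl1, Gpc4 and, by a small margin, Spink2 have their lowest value on slide 2.

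Profiles over the 9 arrays were compared between each of the 3 genes and 15774 other named genes by Pearson correlation, given as a description because arrays of a group share their treatment and arrays of a slide share it too. Akr1c18, Gna14 and Spink2 correlated with one another at 0.969 to 0.983. High values follow from the choice of all 3 for a large drop in Gata2 KD, so nothing is read from them. The gene most like Akr1c18 was Cyb5a (r = 0.996), which encodes cytochrome b5, followed by Spink2 itself (0.977), Smug1 (0.976), a uracil-DNA glycosylase gene, Il1rl1 (0.975) and the sterol exporter gene Abcg1 (0.971). Cyb5a tracked the order of the Gata2 KD replicates as well, at 3.85, 3.70 and 3.92, although its difference from EV was only -0.60.

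For Gna14 the closest profiles were those of Pdcd1lg2 (0.992), which encodes the immune checkpoint ligand PD-L2, the septin gene Septin6 (0.987), Pakap (0.986), the ectonucleotidase gene Entpd3 (0.986) and the glypican gene Gpc4 (0.985). Several of these shared the raised level of EV replicate 3, as Pdcd1lg2 did at -1.52 against -1.86 and -2.02 in the other EV arrays. Spink2 was most like Fam20a (0.995), Pakap (0.994), Endod1 (0.994), the transcription factor gene Sox6 (0.994) and Pglyrp2 (0.993), which encodes a peptidoglycan-cleaving amidase. Gata2 KD differences of these genes ranged from -0.43 for Smug1 to -3.21 for Il1rl1, so a like profile did not mean a like size. Once slide means were removed, 2, 1 and 2 of the 5 genes stayed among the 5 most similar to Akr1c18, Gna14 and Spink2.

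Few of the other genes that act on progesterone and related steroids were called. Of 28 tested besides the AKR1C family, limma called 2 higher and 1 lower in Gata2 KD, and 1 higher and 1 lower in Pu.1 KD, with medians of -0.10 and 0.08 beside -0.09 and -0.04 over all named genes. That is 10.7% and 7.14% of the list, beside the 7.15% and 3.61% of all named genes given above. Hsd11b1, which encodes the enzyme that regenerates active glucocorticoid, rose in Gata2 KD from -0.31 ± 0.17 to 2.93 ± 0.12, a difference of 3.24 (adjusted p 1.42e-05). Hsd17b11 rose by 1.11 (adjusted p 0.00256), and Paqr8, a membrane progestin receptor gene, was lower by -1.28 (adjusted p 0.00452). In Pu.1 KD Paqr8 was also lower (-0.95, adjusted p 0.0326), and Hsd17b10, which encodes a mitochondrial dehydrogenase, was higher (1.07, adjusted p 0.00941).

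Genes that work with Gna14 in Gq signaling were grouped by role. Of 18 Gq-coupled receptors tested, 2 were higher and 3 lower in Gata2 KD, with a median of 0.02, and 1 was higher and 1 lower in Pu.1 KD, with a median of 0.02. Calls made up 27.8% and 11.1% of this list. Over all named genes 7.15% and 3.61% were called, with medians of -0.09 and -0.04, which also apply to the lists below. The nucleotide receptor gene P2ry6 rose by 3.83 (adjusted p 5.02e-05) and P2ry2 by 2.22 (adjusted p 0.000111), while the thrombin receptor gene F2r was lower by -1.33 (adjusted p 0.00299) and P2ry1 by -1.23 (adjusted p 0.0106). P2ry6 was dim in EV, at -4.39, -4.78 and -3.90 in replicates 1 to 3, which limits how well the size of its rise is known. In Pu.1 KD P2ry2 was lower (-1.19, adjusted p 0.00871). Of 15 beta and gamma subunits, Gnb4 was lower in Gata2 KD (-1.14, adjusted p 0.00608) and Gng2 in Pu.1 KD (-0.75, adjusted p 0.0218), with medians of -0.05 and -0.01. Each was 6.67% of the list, beside 7.15% and 3.61% of all named genes.

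Downstream of the G protein, 2 of 17 effectors were higher in Gata2 KD and none was called by limma in Pu.1 KD, where 4 passed an unadjusted p of 0.05. Both encode protein kinase C forms, Prkcb at 2.62 (adjusted p 6.45e-05) and Prkcd at 0.93 (adjusted p 0.0132), and the list medians were 0.11 and -0.01. Of 16 regulators, 2 were higher and 1 lower in Gata2 KD (median -0.07), and 4 were lower in Pu.1 KD (median -0.24). Calls in Gata2 KD made up 11.8% of effectors and 18.8% of regulators, beside 7.15% of all named genes. Regulators called in Pu.1 KD made up 25%, beside 3.61% of all named genes. Rgs14 and Rgs1, which encode GTPase-activating proteins, differed by 1.43 (adjusted p 0.00312) and -1.95 (adjusted p 0.00135) in Gata2 KD, and Rgs2 and Rgs19 were lower in Pu.1 KD by -1.50 (adjusted p 0.0103) and -1.09 (adjusted p 0.0132).

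For Spink2 the lists were other serine protease inhibitors and serine proteases that share the trypsin fold but differ in the bonds they cut. Of 20 other inhibitors, 4 were higher and 2 lower in Gata2 KD (median -0.12), and 1 was higher and 1 lower in Pu.1 KD (median -0.14). Calls made up 30% and 10% of the list, beside 7.15% and 3.61% of all named genes. Serpinb10 rose by 2.71 (adjusted p 0.00014) and Slpi, the secretory leukocyte protease inhibitor gene, by 1.13 (adjusted p 0.00385) in Gata2 KD. Serpinf1 was lower in Pu.1 KD (-1.61, adjusted p 0.00285).

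Of 17 trypsin-fold proteases, 4 were higher and 5 lower in Gata2 KD (median -0.45), and 3 were higher and 3 lower in Pu.1 KD (median 0.12). Those calls were 52.9% and 35.3% of the list, beside 7.15% and 3.61% of all named genes. The neutrophil granule protease genes Elane and Prtn3 rose by 3.05 (adjusted p 3.3e-05) and 2.95 (adjusted p 2.87e-05) in Gata2 KD, where the granzyme gene Gzmb was lower by -1.92 (adjusted p 0.000131). In Pu.1 KD another granzyme gene, Gzmc, rose by 1.98 (adjusted p 0.00137) and Prtn3 was lower (-1.46, adjusted p 0.00376). Several genes of this list are also neutrophil or mast cell and basophil markers, among them Elane, Prtn3 and Gzmb. Their calls are therefore counted again in the marker lists below, and the shares describe no link to Spink2.

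Because Akr1c18 activity is a known IL-3 readout, the IL-3 receptor and its response genes were examined. Of 19 tested, 1 was higher and 4 lower in Gata2 KD (median -0.03), and 1 was higher and 1 lower in Pu.1 KD (median 0.17). Calls were 26.3% and 10.5% of the list, beside 7.15% and 3.61% of all named genes. Stat5a, which encodes the transcription factor that IL-3 activates, was lower in Gata2 KD by -1.07 (adjusted p 0.00382), as was the receptor chain gene Csf2rb2 (-0.93, adjusted p 0.038). Socs3, a cytokine signal suppressor gene, rose by 1.03 (adjusted p 0.00955). The kinase gene Jak2 was lower in Pu.1 KD (-1.04, adjusted p 0.0125).

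Markers of several blood cell types moved with the same groups. The summed signal of 17 mast cell and basophil markers, in multiples of the 75th percentile, was 420.8 to 505.6 in EV, 162.3 to 206.7 in Gata2 KD and 447.1 to 484.7 in Pu.1 KD, with 9 called lower and 1 higher in Gata2 KD and 4 lower and 2 higher in Pu.1 KD. Among them the protease gene Cpa3 was lower by -2.49 in Gata2 KD and Kit was higher by 0.75. The corresponding sums of 13 neutrophil markers were 241.1 to 270.6, 1138 to 1357 and 105.9 to 125.0, with 12 called higher in Gata2 KD and 10 lower in Pu.1 KD. Those of 10 monocyte and macrophage markers were 34.8 to 38.3, 224.8 to 281.5 and 14.7 to 16.1, with 8 called higher in Gata2 KD and 3 lower in Pu.1 KD. In Gata2 KD the calls were 58.8%, 92.3% and 80% of these lists in turn, beside 7.15% of all named genes. In Pu.1 KD they were 35.3%, 76.9% and 30%, beside 3.61%.

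Sums of 12 erythroid markers were 25.4 to 31.7 in EV, 18.05 to 23.6 in Gata2 KD and 38.6 to 46.4 in Pu.1 KD, with 4 lower in Gata2 KD and 3 higher in Pu.1 KD. Of 9 megakaryocyte markers 2 were higher and 1 lower in Gata2 KD, and 3 higher and 1 lower in Pu.1 KD, with sums of 64.0 to 82.0, 66.5 to 97.8 and 151.9 to 176.5. Of 7 eosinophil markers 2 were higher in Gata2 KD and 4 lower in Pu.1 KD, with sums of 3.67 to 5.04, 11.1 to 14.5 and 1.40 to 1.59. Of 13 stem and progenitor markers 5 were higher and 3 lower in Gata2 KD, and 2 higher and 1 lower in Pu.1 KD, with sums of 21.1 to 27.2, 51.8 to 57.8 and 25.4 to 26.3. In Gata2 KD the calls were 33.3%, 33.3%, 28.6% and 61.5% of these lists in turn, beside 7.15% of all named genes. In Pu.1 KD they were 25%, 44.4%, 57.1% and 23.1%, beside 3.61%. No tested marker was read at 0. The part of any of these markers in the levels of Akr1c18, Gna14 and Spink2 was not tested.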

How the data were processed

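Total RNA from 9 samples was hybridized to single-color Agilent arrays, and groups and replicate numbers came from the sample titles. The authors deposited scanner intensity values from Agilent Feature Extraction 10.1.1.1, not normalized between arrays, and 1 table of log2 values, whose processing is not described in detail and which was used as an alternative. Outlier-flagged spots were dropped, spots of a probe were averaged, and the 75th percentile of each array was subtracted from the processed signal on the log2 scale. Testing required a signal well above background on 3 or more arrays. The number of arrays limits the precision. Accessions were matched to RefSeq genes of GRCm38.p6 (23374 of 41174 probes), and a gene with several probes was counted by the brightest on average.

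The comparisons used limma 3.58.1 (R 4.3.3) fitted to all 9 arrays, two-sided, with p-values adjusted by Benjamini-Hochberg across the tested probes and a threshold of 0.05. "Called" means past that threshold. The fit was tested on simulated data. The genes, the 12 pathway lists, the 7 marker lists and the tests were chosen with earlier results of these data known. Genes named besides the 3 and the targeted genes were all those of the 3 families, up to 4 called genes with the largest difference per other list, the 3 nearest tested genes on each side, the 5 most similar profiles and the genes ranked next to the 3. One gene that this rule picks is not reported here. Cpa3 and Kit were named after their values were seen. Alternatives were the slide or the replicate number as a block, normexp correction with an offset of 50 (on the median signal), quantile normalization, scaling to the median, flagged spots kept, the deposited log2 values, other filters on dim probes, trend and robust settings, only the groups compared, and each array left out in turn.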

Additional observations from a re-analysis of the deposited data

How the results depend on the processing

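The Pu.1 KD differences of the 3 genes stayed uncalled under all 20 alternatives and kept their sign, except that Gna14 changed to 0.11 without EV replicate 3. They ranged from -0.27 to -0.07 for Akr1c18, -0.26 to 0.11 for Gna14 and -0.28 to -0.18 for Spink2. Their Gata2 KD differences from EV stayed negative throughout and were smallest with normexp correction. Counts over all probes moved more. Gata2 KD against EV called 1902 probes (1084 higher, 818 lower), and 1203 with scaling to the median (839 higher, 364 lower), 2886 with slide as a block, 1114 with only the groups compared and 1072 to 1698 with an array left out. Pu.1 KD against EV called 986, and 377, 1875 and 223 under the same settings, 1785 in the deposited table, 1575 with trend and robust settings and 280 to 824 with an array left out. With the replicate number as a block the counts were 1172 and 234. Same-numbered arrays deviated from their group means with correlations of -0.55 to 0.65, so the numbers were not taken to pair the samples. Arrays of the same slide did so with correlations of -0.04 to 0.72. The main fit had no term for slide, which entered only as an alternative. Over the pathway lists together, Pu.1 KD called 20 genes, and 31 with slide as a block and 35 in the deposited table. Under those settings the calls in Gata2 KD rose from 3 to between 5 and 6 for steroid handling, 1 to 3 for alpha subunits, 1 to 2 for beta and gamma subunits and 2 to between 4 and 5 for effectors. In Pu.1 KD they became 1 for other aldo-keto reductases, 3 to 5 for steroid handling, 0 to 1 for alpha subunits, 2 for beta and gamma subunits, 1 to 2 for effectors, 3 to 4 for protease inhibitors and 4 to 5 for IL-3 response. The other lists stayed within 1.5 times. The cause of these changes was not tested. Signal over background limits the Gata2 KD levels of Akr1c18 and Gna14 most.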
